A study of Mus musculus with 36 samples.

Results

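The tail bud vessel genes were 8 genes grouped under vessels: the ligand gene Angpt2, the receptor genes Tek and Tie1, the junction genes Esam and Pecam1, the matrix gene Mmrn2, the transcription factor gene Sox18 and the adaptor gene Klhl6. Angpt2, Mmrn2 and Klhl6 were picked by measured values, a difference between the chordoneural hinge (CNH) and the tail bud posterior to it (P-CNH) that changed with stage, so that their values in those regions are a description. The other 5 were added as genes of the vessel wall. The name of the group is not a finding of these data. Every probe carrying 1 of these symbols was taken, 12 of 45281 probes on the array and 8 of 30869 gene symbols. Of these, 10 probes of 7 genes were detected on at least 1 array and entered the tests, which covered 21712 probes of 15556 symbols. Tie1 and the second Angpt2 probe were detected on 0 of 36 arrays.

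RNA from microdissected regions of mouse embryos was hybridised to Illumina BeadChips to follow the primitive streak and the tail bud through axis elongation. All embryos were wild type of the MF1 strain, and each array held RNA of dissected pieces pooled over embryos. The E7.5 regions were anterior (A, 3 arrays), posterior (P, 2) and proximal posterior (PP, 2), with 9 to 25 pieces in a pool. At E8.5 they were the rostral node (RN, 2), node-streak border (NSB, 3), caudal lateral epiblast (CLE, 3), anterior streak (St1, 2) and posterior streak (St5, 2), with 12 to 57 pieces. In the tail bud the CNH was taken at E9.5, E10.5, E12.5 and E13.5 (2 arrays each) and E11.5 (3 arrays), from 6 to 74 pieces, and the P-CNH at E9.5, E10.5 and E11.5 (2 each), from 6 to 65. The labels do not tie the pools to separate embryos, so that p-values measure the spread between these pools. The arrays fell into 3 labelled batches of 12, and NSB replicate 3 was the array that tied batch 1 to the others.

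Blood vessels form from mesoderm cells that become endothelium, join into tubes and are then remodelled. Angiopoietins, read by the receptor Tie2 that Tek encodes, set how tightly endothelial cells hold together and to their support cells, and the related receptor Tie1 modulates Tie2. In the early embryo the first endothelial and blood cells come from posterior mesoderm, and vessels later extend into the growing tail. Levels below are normalised log2 intensities with the SD over the arrays of a region. A probe was detected on an array where its detection p lay under 0.01, and a level of an array without detection is background. The tests were limma's, over all 21712 probes, with region and batch as terms. A difference counted as called where the adjusted p was 0.05 or less and the fold at least 1.5. Where a probe was detected on 0 arrays of the dimmer group, the fold is given as at least N, the mean of the bright group against the mean of, on each dim array, the higher of its lowest detected level and the probe's own level, without batch adjustment. Where the bright group too was detected on only some arrays, the number of these arrays is given and no such fold, and likewise none where cyclic loess gave a smaller difference than it. The fold is a bound within the main normalisation only, since no background correction or an offset of 100 shrinks differences from background levels and can fall below it.

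Angpt2 encodes a secreted ligand of Tie2 that loosens vessels and is made by endothelial cells during remodelling. Its first probe was detected on 29 of 36 arrays. In the CNH its level was 8.46 and 8.45 at E9.5, 9.17 and 9.03 at E10.5, 10.00, 9.58 and 9.11 at E11.5, 10.27 and 9.76 at E12.5, and 9.89 and 10.27 at E13.5. In the P-CNH it was 6.00 and 5.81 at E9.5, the second value without detection, then 7.29 and 6.93 at E10.5 and 10.84 and 9.86 at E11.5. Every CNH array lay above every P-CNH array at E9.5 and at E10.5, as for 23.2 and 19.2 percent of all probes. At E11.5 the arrays overlapped and a P-CNH array held the highest level of all 36. Among the earlier regions the NSB had 7.77, 8.07 and 8.40, St1 7.78 and 7.93, St5 7.09 and 7.28 and RN 6.93 and 6.65. From the highest, the means ran 10.35 ± 0.69 in E11.5 P-CNH, 10.08 ± 0.27, 10.02 ± 0.36, 9.56 ± 0.44, 9.10 ± 0.09 and 8.45 ± 0.00 in the CNH from E13.5 back to E9.5, 8.08 ± 0.32 in NSB, 7.85 ± 0.11 in St1, 7.19 ± 0.13 in St5, 7.11 ± 0.25 in E10.5 P-CNH, 6.79 ± 0.19 in RN, 6.37 ± 0.47 in A, 6.05 ± 0.00 in PP, 6.03 ± 0.49 in P, 5.91 ± 0.13 in E9.5 P-CNH and 5.45 ± 0.32 in CLE. Of the 15 neighbouring pairs in this order 10 overlapped, and the gaps lay below E10.5 CNH, E9.5 CNH, St1, E10.5 P-CNH and E9.5 P-CNH. CLE and P were the regions without detection on any array.

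Tek encodes Tie2, the receptor tyrosine kinase that binds the angiopoietins. It was detected on 10 of 36 arrays. St5 had 7.78 and 7.84, E13.5 CNH 7.29 and 6.55, E10.5 CNH 6.03 and 6.64, A 6.19, 6.15 and 7.06, and PP 6.22 and 5.90. Both St5 arrays lay above all other arrays, and E13.5 replicate 2 and A replicate 1 were without detection in spite of their levels. After St5 at 7.81 ± 0.05, the means ran 6.92 ± 0.52 in E13.5 CNH, 6.47 ± 0.51 in A, 6.34 ± 0.44 in E10.5 CNH, 6.06 ± 0.22 in PP, 5.84 ± 0.17 in P, 5.42 ± 0.65 in RN and 5.36 ± 0.43 in E12.5 CNH, and the other 8 regions lay between 5.24 ± 0.61 in E10.5 P-CNH and 4.73 ± 0.21 in CLE without detection. In this order 14 of 15 neighbouring pairs overlapped, the exception being St5 above E13.5 CNH. Tie1 had background levels throughout, from 4.45 to 5.89, and its regions have no order.

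Esam encodes an adhesion molecule of endothelial tight junctions and was detected on 32 of 36 arrays. Its level was 9.5 and 9.81 in St5, 8.66 and 9.05 in E10.5 CNH, 8.53 and 9.19 in E13.5 CNH, 8.46 and 7.85 in PP, 6.93 and 7.87 in E10.5 P-CNH, and 8.46 and 7.5 in E11.5 P-CNH. At E9.5 the CNH had 5.91 and 6.23 and the P-CNH 5.28 and 4.93, with detection on 1 of these 4 arrays. St5 stood above every other array, and E9.5 was the stage at which the tail bud was lowest. The means ran 9.65 ± 0.22 in St5, 8.86 ± 0.47 in E13.5 CNH, 8.86 ± 0.27 in E10.5 CNH, 8.15 ± 0.43 in PP, 7.98 ± 0.68 in E11.5 P-CNH, 7.71 ± 0.22 in NSB, 7.63 ± 0.78 in CLE, 7.61 ± 0.03 in RN, 7.61 ± 0.02 in St1, 7.44 ± 0.11 in E11.5 CNH, 7.40 ± 0.67 in E10.5 P-CNH, 7.24 ± 0.46 in E12.5 CNH, 6.91 ± 0.51 in P, 6.61 ± 1.25 in A, 6.07 ± 0.22 in E9.5 CNH and 5.11 ± 0.25 in E9.5 P-CNH. Neighbours overlapped in 11 of 15 pairs, with gaps below St5, E10.5 CNH, St1 and E9.5 CNH.

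Pecam1 encodes an adhesion molecule found between endothelial cells and on platelets. Its first probe was detected on 9 arrays and its second on 8. The first probe gave 6.86 and 8.53 in E13.5 CNH, 6.79 and 5.96 in E11.5 P-CNH, 5.95 and 6.27 in E10.5 CNH, 5.87 and 6.04 in St5, and 6.20, 5.86 and 5.52 in E11.5 CNH, where the highest of the 3 arrays was detected. Apart from these 5 regions it was at background on every array. The second probe gave 6.40 and 6.50 in St5, 6.14 and 6.28 in E10.5 CNH, 6.49 and 6.20 in E12.5 CNH, and 8.01 and 5.64 in E13.5 CNH, the last without detection. In E11.5 P-CNH it gave 4.66 without detection and 6.69 with it. The probes disagreed at E12.5, where the second was detected on both arrays and the first on 0, on E11.5 CNH replicate 1 (6.20 detected, 5.36 not), on E13.5 replicate 2 (8.53 detected, 5.64 not) and on E11.5 P-CNH replicate 1 (6.79 detected, 4.66 not), and over the 16 regions their levels correlated with r = 0.76. The means of the first probe ran from 7.70 ± 1.19 in E13.5 CNH over 6.38 ± 0.59 in E11.5 P-CNH, 6.11 ± 0.22 in E10.5 CNH, 5.96 ± 0.12 in St5, 5.86 ± 0.34 in E11.5 CNH and 5.49 ± 0.32 in E12.5 CNH to 4.72 ± 0.13 in CLE, and 14 of 15 neighbouring pairs overlapped.

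Mmrn2 encodes a matrix glycoprotein laid down by endothelial cells. It was detected on 8 of 36 arrays and on every array of 3 regions. Those regions were E13.5 CNH with 8.73 and 8.11, E10.5 CNH with 7.60 and 8.07, and St5 with 7.33 and 7.56. The CNH between them was at background, with 5.30, 5.73 and 5.34 at E11.5 and 5.75 and 5.60 at E12.5, and at E9.5 it had 4.82 and 5.06. In the P-CNH the values were 4.50 and 4.69 at E9.5, 5.60 and 6.12 at E10.5, and 6.12 and 6.25 at E11.5, with detection on 1 array at each of the later stages. The normalised level along the CNH was high at E10.5 and E13.5, low at the other 3 stages, and without overlap between the high and the low arrays. The E10.5 arrays were the only CNH arrays in batch 1, so that stage and batch are told apart there only through NSB replicate 3. Before normalisation the E13.5 and E12.5 arrays overlapped, as given below. The means ran 8.42 ± 0.44, 7.84 ± 0.34 and 7.45 ± 0.16 in the 3 regions with detection, then 6.18 ± 0.09 in E11.5 P-CNH, 5.86 ± 0.37 in E10.5 P-CNH, 5.67 ± 0.10 in E12.5 CNH, 5.45 ± 0.24 in E11.5 CNH and 4.94 ± 0.17 in E9.5 CNH, and the other 8 regions lay between 4.80 ± 0.05 in RN and 4.59 ± 0.14 in E9.5 P-CNH. Neighbours overlapped in 10 of 15 pairs.

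Sox18 encodes a SOX-family transcription factor of early endothelium. It was detected on 15 arrays. St5 had 8.88 and 8.81, RN 8.12 and 7.88, E13.5 CNH 7.58 and 6.86, E10.5 CNH 6.78 and 7.56, NSB 6.44, 6.07 and 6.48, PP 6.64 and 5.95, and E10.5 P-CNH 5.76 and 6.12. RN came second to St5 for this gene, without overlap on either side, and E13.5 replicate 2 was without detection. The CNH was at background at E9.5 with 5.05 and 4.99, at E11.5 with 5.05, 5.00 and 5.22, and at E12.5 with 5.38 and 5.41. The P-CNH had 4.52 and 4.96 at E9.5 and 6.21 and 5.73 at E11.5, all without detection. The means ran 8.84 ± 0.05 in St5, 8.00 ± 0.17 in RN, 7.22 ± 0.51 in E13.5 CNH, 7.17 ± 0.55 in E10.5 CNH, 6.33 ± 0.22 in NSB, 6.29 ± 0.49 in PP, 5.97 ± 0.34 in E11.5 P-CNH and 5.94 ± 0.26 in E10.5 P-CNH, and from 5.39 ± 0.02 in E12.5 CNH down to 4.73 ± 0.10 in P for the other 8. Of 15 neighbouring pairs 10 overlapped.

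Klhl6 encodes a BTB-kelch adaptor of a ubiquitin ligase and is best known from B cells. Its first 2 probes were each detected on 31 arrays and correlated with r = 0.99 over the 16 regions, while the third was detected on 1 array. The first probe gave 9.5 and 9.54 at E9.5, 9.66 and 9.64 at E10.5, 9.79, 9.5 and 9.02 at E11.5, 9.73 and 8.67 at E12.5, and 8.74 and 9.44 at E13.5 in the CNH. In the P-CNH it gave 5.08 and 4.64 at E9.5, both without detection, 6.00 and 6.47 at E10.5, and 8.24 and 7.36 at E11.5. CNH arrays lay above P-CNH arrays at all 3 stages without overlap, and the distance shrank as the P-CNH level went up. Of all probes 23.2, 19.2 and 7.74 percent lay above in this way at E9.5, E10.5 and E11.5. Earlier regions held 9.01 and 8.60 in PP, 8.69 and 9.02 in St5, 8.29 and 8.27 in P, 7.95, 8.24 and 7.99 in NSB, 7.72, 7.41 and 8.23 in A, 6.68 and 6.67 in RN, and 6.12 and 6.31 in St1. The CLE was at background. The means ran 9.65 ± 0.02, 9.52 ± 0.02, 9.44 ± 0.39, 9.20 ± 0.75 and 9.09 ± 0.50 in the CNH at E10.5, E9.5, E11.5, E12.5 and E13.5, 8.86 ± 0.23 in St5, 8.80 ± 0.29 in PP, 8.28 ± 0.02 in P, 8.06 ± 0.15 in NSB, 7.80 ± 0.63 in E11.5 P-CNH, 7.79 ± 0.41 in A, 6.67 ± 0.01 in RN, 6.23 ± 0.33 in E10.5 P-CNH, 6.22 ± 0.13 in St1, 4.86 ± 0.31 in E9.5 P-CNH and 4.68 ± 0.11 in CLE, with overlap in 9 of 15 neighbouring pairs.

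**Figure D1:**
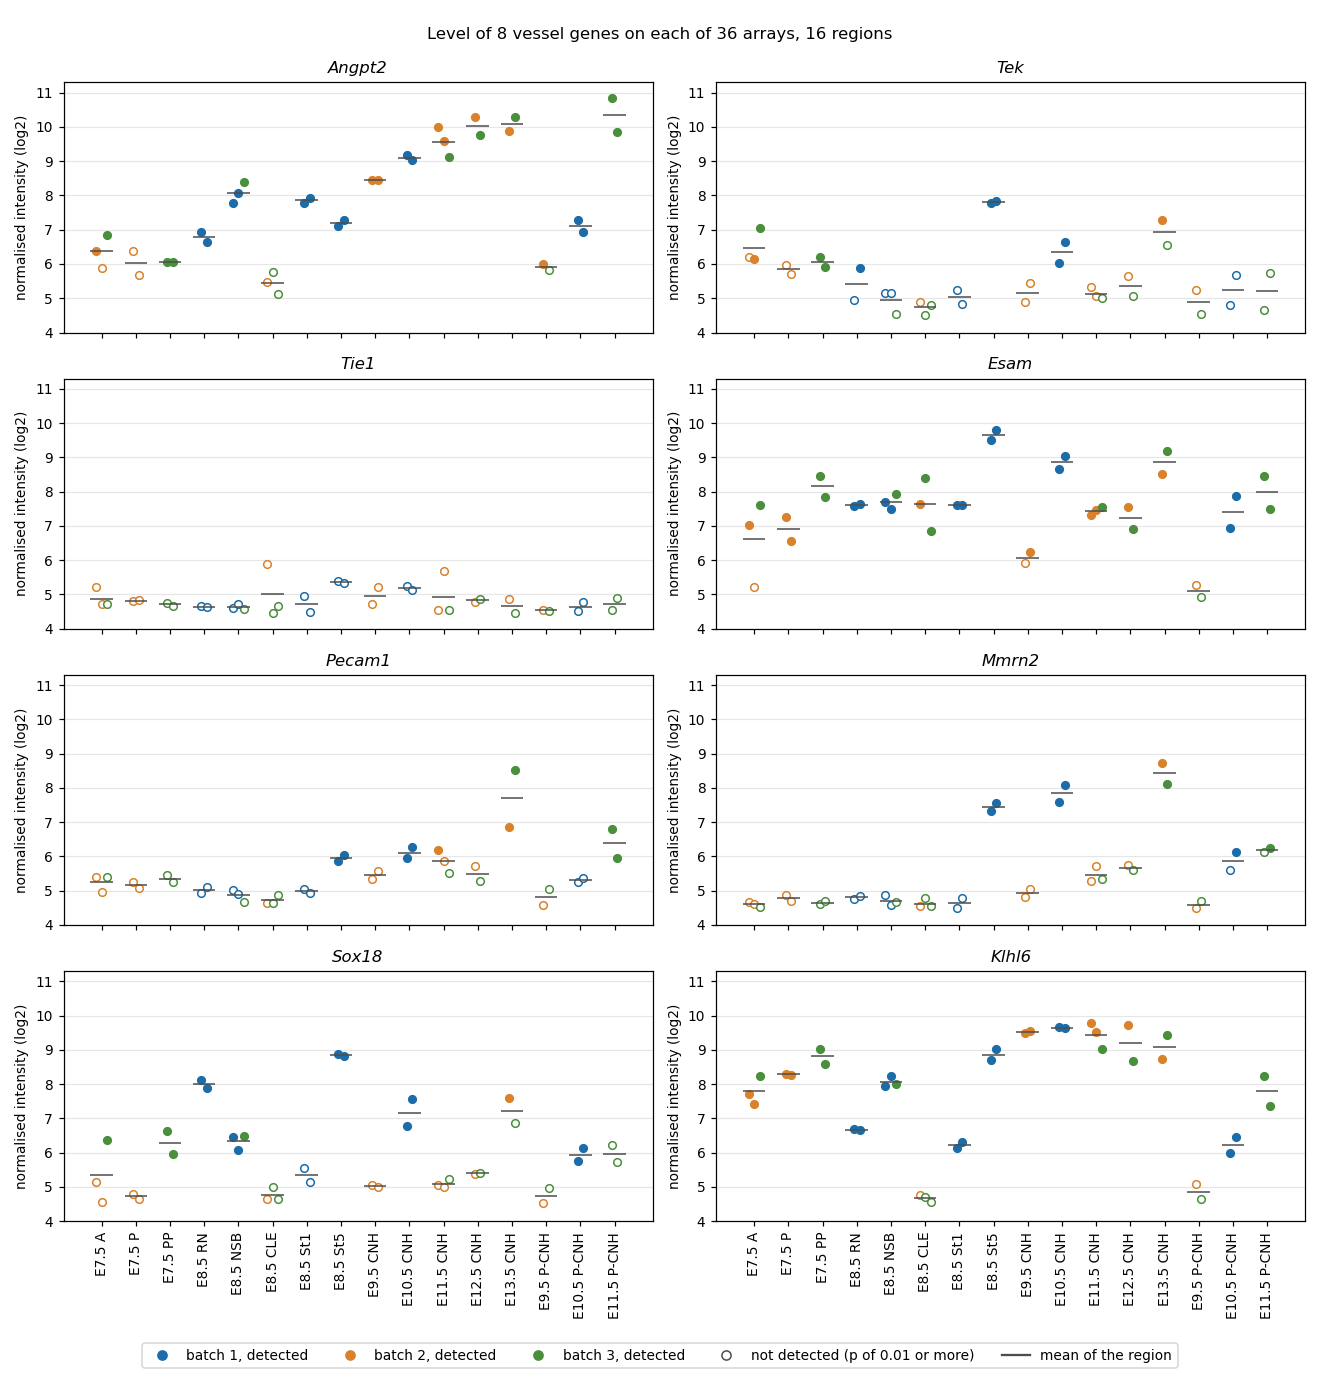
Normalised log2 intensity of the first probe of each of the 8 genes (vertical axis) on each of 36 arrays, by region (horizontal axis); colours mark the 3 batches, open points arrays without detection and lines region means. St5, E10.5 CNH and E13.5 CNH are high for Tek, Esam, Mmrn2 and Sox18, with RN second for Sox18 and A above E10.5 CNH for Tek by means, while Angpt2 and Klhl6 are high along the whole CNH series and Tie1 is at background. The St5 and E10.5 CNH arrays are all in batch 1.

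The members did not share 1 pattern over the 16 regions. Correlations of fitted region levels ran from r = 0.06 between Angpt2 and Tek to r = 0.78 between Esam and Sox18, and Pecam1 and Mmrn2 had r = 0.76. These are descriptions over 16 regions that share arrays, batches and the fit. Among 7994 probes with an SD of at least 0.5 over the regions, Mmrn2 was most like Cd93 (r = 0.951), Pcdh12 (0.943) and Tmem204 (0.928), of which Cd93 encodes an endothelial receptor that binds the Mmrn2 protein. The nearest patterns to Tek were Sox7 (0.906), Ppp1r14a (0.889) and Abi3 (0.865), and those nearest to Esam were Cldn5 (0.892), Plvap (0.885) and Cdh5 (0.831, by its second probe, detected on 4 arrays), 3 genes of endothelial junctions and pores. For Sox18 they were Gadd45g (0.874), Rasip1 (0.853) and Plvap (0.836), and for Pecam1 Slc44a1 (0.901), Cbr2 (0.896) and Rprml (0.895). Angpt2 was most like Emp1 (0.914), Krt36 (0.901) and Atp9a (0.890), none of them a vessel gene of the lists used here. Klhl6 had the lowest values, with Mfsd7c (0.767), Hist1h2bc (0.760) and 1110032E23Rik (0.754). Against the first probe of Cdh5, which encodes VE-cadherin, detected on 9 arrays, r was 0.92 for Mmrn2, 0.85 for Pecam1, 0.79 for Tek, 0.60 for Esam, 0.59 for Klhl6, 0.55 for Angpt2 and 0.52 for Sox18. Its second probe gave 0.91, 0.54, 0.57, 0.83, 0.34, 0.51 and 0.82 in the same order, and Emcn gave 0.89, 0.70, 0.28, 0.55, 0.48, 0.80 and 0.41, so that the order of the members by likeness depended on the marker and the probe, with Mmrn2 first for each.

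CNH and P-CNH were set against each other to ask how the tail bud region that holds axial progenitors differs from the tissue behind it. For the picked genes the log2 difference, CNH minus P-CNH, is a description. For Angpt2 it was 2.52 (SE 0.36) at E9.5, 1.99 (SE 0.34) at E10.5 and -0.81 (SE 0.34) at E11.5. Mmrn2, at background in both regions at E9.5, stood at 1.98 at E10.5 (1.14 with an offset of 100) and -0.80 at E11.5 (-0.35), where 1 of 5 arrays detected it. For Klhl6 it was 4.59 at E9.5, at least 11.9-fold in the main normalisation (3.01 with no background correction, 2.81 with an offset of 100), then 3.42 and 1.55, and its second probe gave 4.21, 2.96 and 1.54. From E9.5 to E11.5 the difference moved by -3.34 for Angpt2 (-4.61 to -2.33 over the settings) and by -3.04 for Klhl6 (-4.29 to -1.53). In these described values the sign differed between stages for Angpt2 and Mmrn2 and not for Klhl6. At E11.5 Mmrn2 was detected on 0 of 3 CNH and 1 of 2 P-CNH arrays, so that its sign there is that of levels at or near background. At E11.5, where the Angpt2 arrays overlap, the Angpt2 difference was -0.32 without P-CNH replicate 1 and -1.30 without replicate 2. Within single batches Angpt2 gave 2.45 in batch 2 at E9.5 (2 CNH arrays and 1 P-CNH array). It gave 1.99 in batch 1 at E10.5 (2 and 2) and -1.23 in batch 3 at E11.5 (1 and 2). Each stage was thus read in another batch, so that stage and batch cannot be told apart in these values. At E9.5 the CNH and P-CNH arrays shared no BeadChip, and with BeadChip as a fixed block the Angpt2 difference was 3.53.

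The members that were not picked on this contrast, Tek, Esam, Pecam1 and Sox18, were higher in the CNH at E10.5, yet none passed the threshold in the fit of all arrays. On the arrays given above, both CNH values of each lay above both P-CNH values at E10.5, as they did for 19.2 percent of all probes. Esam differed by 1.45 (SE 0.55), Sox18 by 1.23 (SE 0.38), Tek by 1.10 (SE 0.40, at least 1.60-fold) and Pecam1 by 0.81 (SE 0.36, at least 1.37-fold) and 1.20 (SE 0.52, at least 1.46-fold) on its 2 probes. limma called 0 of these 5 probes, where 0.318 percent of all probes were called, 5 had an unadjusted p under 0.05 (2.01 percent of all probes had), and the smallest adjusted p was 0.526, that of Sox18. All 4 arrays lay in batch 1. Fitted on batch 1 alone, with 6 residual degrees of freedom and 2.58 percent of all probes called, 4 of the 5 were called, namely Esam (SE 0.25, adjusted p = 0.00946), Pecam1 (SE 0.13, adjusted p = 0.0068, and 0.000469 on its second probe) and Sox18 (SE 0.25, adjusted p = 0.0215), with the differences as above, and Tek was not (adjusted p = 0.142). The calls at E10.5 were thus made in the fit of batch 1 alone and not in that of all arrays. These fits differed in spread, residual degrees of freedom and share of all probes called. Which of these moved the calls was not tested. In bulk pieces such as these, fewer endothelial cells and less RNA in each cell cannot be told apart.

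The same genes were tested at E9.5 and E11.5. limma called 0 of 5 probes at E9.5, against 0.170 percent of all probes, with 0 at an unadjusted p under 0.05 (4.83 percent of all probes) and 5 of 5 higher in the CNH (3 of 5 with cyclic loess), and Esam had the largest difference, 1.09 (SE 0.57), on 1 detected array of 4. At E11.5 it called 0 of 5 against 0.161 percent, again with 0 at an unadjusted p under 0.05 (4.71 percent of all probes), and 0 of 5 were higher in the CNH, with Pecam1 at -0.38 (SE 0.35). Of the changes between stages, E9.5 to E10.5 had 0 of 5 probes called where 0.00 percent of all probes were (0 at an unadjusted p under 0.05, and 2.05 percent of all probes), E10.5 to E11.5 had 0 of 5 against 0.00461 percent (5 at an unadjusted p under 0.05, and 1.49 percent of all probes), and E9.5 to E11.5 had 0 of 5 against 0.0276 percent (2 at an unadjusted p under 0.05, and 5.86 percent of all probes). The median change from E10.5 to E11.5 was -1.70 over the 5 probes and 0.00 over all probes. Batch 2 alone at E9.5 and batch 3 alone at E11.5 also had 0 of 5 called, where 0.0507 percent and 0 of all probes were, so that these fits could hardly call a member.

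**Figure D2:**
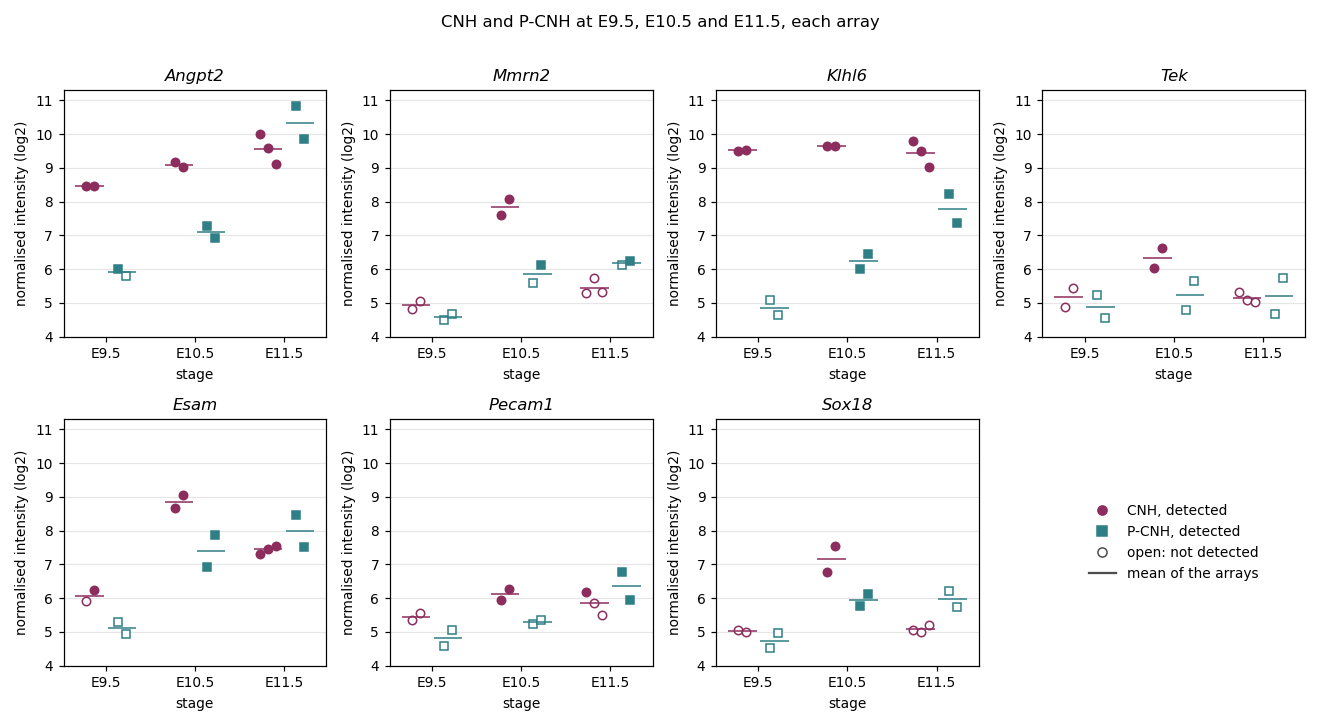
Normalised log2 intensity (vertical axis) on each CNH (circles) and P-CNH (squares) array at E9.5, E10.5 and E11.5 (horizontal axis) for 7 genes, with open symbols for arrays without detection and lines for means. At E10.5 both CNH arrays lie above both P-CNH arrays for all 7 genes, of which Angpt2, Mmrn2 and Klhl6 were picked on this contrast, and for 19.2 percent of all probes, and at E11.5 the P-CNH of Angpt2 spans 9.86 to 10.84.

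Other vessel genes gave the same contrast a wider frame. At E10.5 limma called 2 of 12 tested endothelial surface and junction genes higher in the CNH, Emcn, a mucin of venous and capillary endothelium (2.30, SE 0.45, adjusted p = 0.0148), and Cd93 (1.69, SE 0.35, adjusted p = 0.0282), and 11 of 12 were higher, with a median of 1.00 against -0.01 over all probes. With cyclic loess 4 were called, adding Plvap and Mmrn1. Of 12 tested endothelial transcription factors it called Sox17 (1.62, SE 0.25, adjusted p = 0.00154, at least 1.93-fold), which the definitive endoderm also expresses, and this call was lost with no background correction (adjusted p = 0.107), an offset of 100 (0.0978) and cyclic loess (0.112). For the angiopoietin-Tie list 0 of 4 tested genes were called at all 3 stages, and Angpt1 and Angpt4 were detected on 0 arrays. Of the VEGF and Notch list 0 of 9 were called at all 3 stages (Flt1 and Aplnr at E10.5 with cyclic loess), and Kdr, Flt4, Pgf, Dll4 and Apln were detected on 0 arrays. The notochord genes Noto, Shh and Foxa2 were all called higher in the CNH at E10.5, Noto and Shh at E9.5 (Noto not with no background correction), and Shh at E11.5.

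Markers of blood were read beside these genes. For 6 primitive red blood cell genes, brightest Hba-a1, the summed linear intensity at E9.5 was 37300 and 37800 in the CNH and 7500 and 4140 in the P-CNH, at E10.5 29300 and 31100 against 24700 and 21100, and at E11.5 31300, 46100 and 6300 against 10900 and 37000. The sums did not overlap at E9.5 and E10.5 and did at E11.5. Of the 6 genes 0 were called at any of the 3 stages, with 6, 6 and 0 higher in the CNH and medians of 2.22, 0.40 and -0.79. The summed endothelial surface list, brightest Egfl7, was 2720 and 2410 against 3310 and 3140 at E9.5, 3860 and 4780 against 3160 and 3350 at E10.5, and 2050, 3420 and 2120 against 3550 and 2360 at E11.5. Of the macrophage and platelet list, brightest Aif1, 0 of 6 tested genes were called, and Ptprc and Gp1bb were detected on 0 arrays. Among pericyte and smooth muscle genes, brightest Acta2, 0 of 5 were called, and Rgs5, Tagln and Abcc9 were detected on 0 arrays. The part of these cell types in the differences was not tested.

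St5, the posterior end of the streak at E8.5, had the highest mean of the E8.5 regions for every detected member but Angpt2, and this contrast shares no array with the pick of Angpt2, Mmrn2 and Klhl6, though members and lists were chosen with earlier results of these data known. It was compared with the mean of RN, NSB, CLE and St1, whose 10 arrays had a lowest, median and highest level of 4.50, 4.93 and 5.89 for Tek, 6.84, 7.63 and 8.40 for Esam, 4.49, 4.71 and 4.88 for Mmrn2, 4.65, 5.81 and 8.12 for Sox18, and 4.55, 6.49 and 8.24 for Klhl6. For each of these 5 genes both St5 arrays lay above all 10, as they did for 7.23 percent of all probes. limma called 7 of 10 member probes higher in St5, where 5.47 percent of all probes were called in either direction, and all 10 were higher with a median of 2.11 against -0.00 over all probes. Mmrn2 rose by 2.74 (SE 0.20, adjusted p = 5.49e-09, at least 2.78-fold), Sox18 by 2.78 (SE 0.33, adjusted p = 4.67e-06), Tek by 2.58 (SE 0.35, adjusted p = 2.69e-05), Klhl6 by 2.43 (SE 0.31, adjusted p = 8.8e-06) and by 2.11 on its second probe (SE 0.34, adjusted p = 0.000177), and Esam by 2.11 (SE 0.48, adjusted p = 0.00708). With an offset of 100 these were 1.24 for Mmrn2, 1.73 for Sox18, 1.34 for Tek and 1.56 and 1.39 for Klhl6, still called. Pecam1 passed on its second probe (1.68, SE 0.45, adjusted p = 0.0264, at least 1.40-fold) and not on its first (0.95, SE 0.31, adjusted p = 0.094). Angpt2, with NSB and St1 above St5, did not differ beyond the spread (0.31, SE 0.30, adjusted p = 1), and in batch 1, which held no CLE, its lowest region at E8.5, the difference from RN, NSB and St1 was -0.34. Batch 1 without CLE, with 6 residual degrees of freedom and 13.7 percent of all probes called, gave 8 of 10, with Tek at 2.60, Esam 2.05, Pecam1 0.97 and 1.74, Mmrn2 2.73, Sox18 2.31 and Klhl6 1.86 and 1.62. The call of Esam was lost without St5 replicate 1 (2.26, adjusted p = 0.0552) or 2 (1.95, 0.146), and that of the second Pecam1 probe without either St5 array (1.73 and 1.64, adjusted p 0.178 and 0.248) or without NSB replicate 1 or 2 (1.68 and 1.69, adjusted p 0.0632 and 0.0638), with no background correction (difference 0.84), with an offset of 100 (0.63) or with no filter.

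Because ETS and SOX factors are regulators of endothelial genes, the promoters of the members were searched where one was found. RefSeq promoters of GRCm38.p6, 250 bases before to 50 after the start, matched 3 of 8 members, Tek, Tie1 and Klhl6. A pair of letter patterns was searched on both strands, AGGAAG for the ETS type and AACAAT for the SOX type. Of 32851 promoters 35.4 percent held AGGAAG, 10.7 percent AACAAT and 3.63 percent both. Tek (chr4:94739039-94739338, plus strand) held AACAAT on the opposite strand, 63 bases before the start, and no AGGAAG. Klhl6 (chr16:19983000-19983299, minus strand) held AGGAAG on the opposite strand, 72 bases before the start, and no AACAAT. Tie1, with background levels, held AGGAAG on the opposite strand 219 bases before and 34 after the start. The sequences run 5′ to 3′ along the gene, with the match in capitals, and a match is a description of letters and not of binding.
Tek: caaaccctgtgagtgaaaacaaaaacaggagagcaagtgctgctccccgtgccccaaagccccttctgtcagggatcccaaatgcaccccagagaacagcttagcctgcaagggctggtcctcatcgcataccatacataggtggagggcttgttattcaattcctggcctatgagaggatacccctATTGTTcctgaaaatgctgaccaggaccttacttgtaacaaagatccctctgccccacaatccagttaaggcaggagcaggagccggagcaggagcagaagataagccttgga
Klhl6: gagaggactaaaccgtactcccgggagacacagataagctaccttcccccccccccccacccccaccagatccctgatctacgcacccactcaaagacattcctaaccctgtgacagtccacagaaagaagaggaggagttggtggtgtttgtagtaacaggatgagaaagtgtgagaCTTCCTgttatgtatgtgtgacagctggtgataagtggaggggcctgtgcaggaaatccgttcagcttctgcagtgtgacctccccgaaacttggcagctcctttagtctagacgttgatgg

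**Figure D3:**
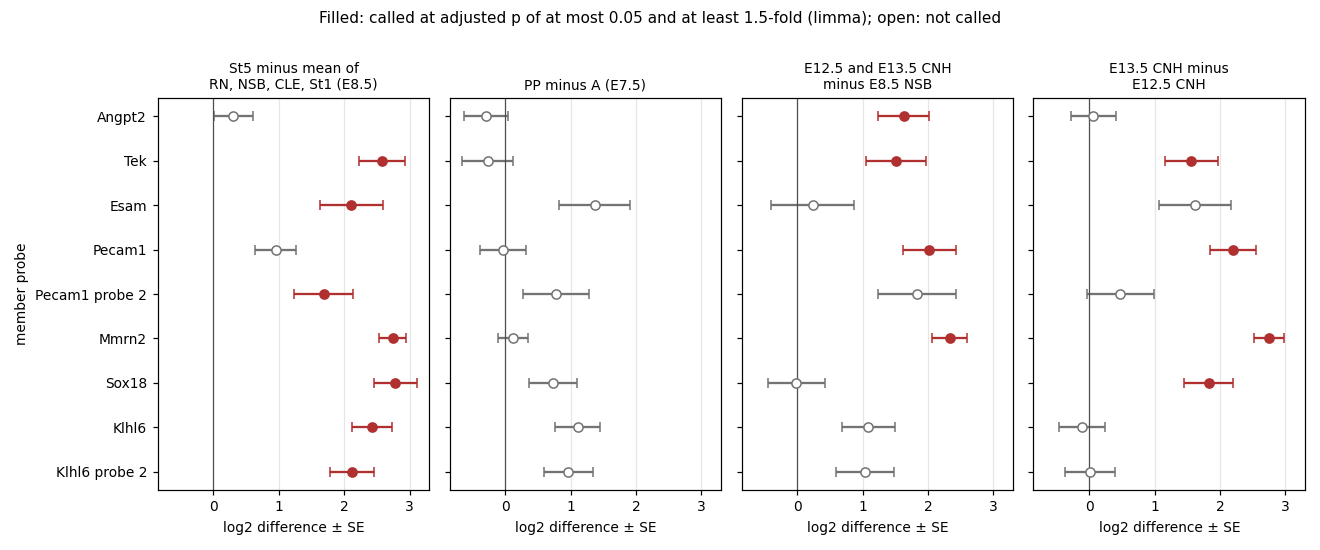
Log2 difference (horizontal axis, bars are SE) of each member probe (vertical axis) in 4 comparisons, filled where called by limma and open where not; the third Klhl6 probe is not drawn. In St5 7 probes are called, where 5.47 percent of all probes are, and Mmrn2 is at 2.74. For PP minus A at E7.5 0 are called, where 6.15 percent of all probes are, and this count moved with the setting and without A replicate 3.

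Other endothelial genes were higher in St5 as well. Of 12 tested endothelial transcription factors 9 were called higher and 0 lower (median 1.72), among them Gata2 (3.89), Ets1 (3.81), Sox7 (3.66, at least 5.44-fold), Etv2 (2.42) and Tal1 (2.32, at least 2.02-fold), the first regulators of endothelium and blood, and Erg was detected on 0 arrays. Surface and junction genes gave 7 of 12 higher and 0 lower (median 1.38), with Plvap at 2.70, Cdh5 at 2.38 (at least 2.82-fold), Eng, a co-receptor for BMP ligands, at 2.35 and Icam2 at 2.22, while Clec14a, Ecscr and S1pr1 were detected on 0 arrays. From the VEGF and Notch list 4 of 9 were higher and 0 lower (median 1.30), namely Nrp1 (2.50) and Flt1 (2.12), which bind VEGF, Vegfa itself (1.35) and the Notch target Hey1 (1.30). The angiopoietin-Tie list had 0 of 4 called (median 0.23) and 1, Svep1, with cyclic loess. Medians include genes at background in the other regions. The smooth muscle gene Acta2 was higher (1.94), 0 of 6 red blood cell genes and 0 of 6 macrophage and platelet genes were called (1, Itga2b, with cyclic loess), and Noto (-2.41), Sox2 (-2.62), Nkx6-1 (-1.41) and Meox1 (-2.08) were lower. Sums of the surface list were 4770 and 5290 in St5 against 2360, 2560 and 3610 in NSB, and the red blood cell sums were 2810 and 911 against 3940, 1740 and 1180. The part of cell types in the rise was not tested.

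At E7.5 PP, the proximal part of the posterior side, was compared with A and with P. Against A, the levels given above for Klhl6 were higher in both PP arrays than in all 3 A arrays, and those of Esam likewise, as for 12.8 percent of all probes, whereas Sox18 and Tek overlapped. limma called 0 of 10 member probes, against 6.15 percent of all probes, with 3 at an unadjusted p under 0.05, as 16.8 percent of all probes were. The nearest was Klhl6 at 1.10 (SE 0.34, adjusted p = 0.0578), followed by its second probe at 0.96 (adjusted p = 0.166) and Esam at 1.36 (SE 0.54, adjusted p = 0.171). This count rested on A replicate 3, without which Esam, Sox18 and Klhl6 were called (3 of 10), and Klhl6 alone was called without either E13.5 CNH array or either E11.5 P-CNH array. Both Klhl6 probes also passed with cyclic loess normalisation and with batch means removed before the fit, where 9.69 and 6.2 percent of all probes were called. In batch 3, which held 1 A array, Klhl6 was 0.57 and 0 were called, as were 0 of all probes. Against P, limma called 0 of 10, against 0.792 percent of all probes, with 1 at an unadjusted p under 0.05 (2276 of 21712 probes), Sox18 (1.24, SE 0.43, adjusted p = 0.252), which passed without A replicate 3 or with no batch term. PP and P shared no batch.

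Early regulators of endothelium were compared between PP and A as well. Of 12 tested endothelial transcription factors 4 were called higher, Lmo2 (2.67), Ets1 (2.08), Sox7 (1.84, detected on 1 of 3 A arrays) and Elk3 (1.29), and 1 lower, Hhex (-1.28). Robo4, an endothelial guidance receptor, was higher (2.47) and Egfl7 lower (-0.83) in the surface list, Aplnr was higher (1.47) in the VEGF and Notch list, with Flt1 added by no background correction and an offset of 100 and Flt1, Vegfc and Hey1 by cyclic loess, and Ptprb, the phosphatase that acts on Tie2, was the 1 of 4 called in the angiopoietin-Tie list (1.85, at least 1.63-fold). Against P, Ptprb was again called (1.55, at least 1.63-fold), though not with no background correction (adjusted p = 0.0554) or an offset of 100 (0.0646), and of the transcription factors and surface genes 0 of 12 and 0 of 12 were, where each scaling alternative called Mef2c. Of 6 red blood cell genes 0 were called in either comparison and 6 were higher in both, but with cyclic loess 4 were higher against A, with Alas2 called, and 5 against P. The visceral endoderm genes Afp and Rbp4 were higher in PP against A (2.54 and 3.06) and P (2.65 and 3.57), and Tbx6 and Dll1 of the presomitic mesoderm were higher against A (5.21 and 4.27). The somite genes Meox1 and Tcf15 were lower against P (-2.21 and -3.63), and against A Meox1 was higher (1.57) and Tcf15 lower (-3.28), with Shh lower (-4.56) and Grhl3 of the surface ectoderm higher (1.74, not with no background correction or an offset of 100). Acta2 was higher against A (2.19). The part of these tissues was not tested.

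The latest CNH, at E12.5 and E13.5, was compared with the NSB at E8.5, its counterpart in the streak. Angpt2 had 10.27, 9.76, 9.89 and 10.27 on the 4 late arrays against 7.77, 8.07 and 8.40, and Mmrn2 5.75, 5.60, 8.73 and 8.11 against 4.88, 4.57 and 4.66. For Angpt2 every late array lay above every NSB array, as for 10.8 percent of all probes. Mmrn2 was detected on the E13.5 arrays alone, and its other levels here are background. limma called 4 of 10 member probes, all higher, against 9.55 percent of all probes, with a median of 1.30 against 0.01 over all probes. Mmrn2 rose by 2.33 (SE 0.27, adjusted p = 1.57e-06, detected on 2 of 4 late arrays), Pecam1 on its first probe by 2.02 (SE 0.41, adjusted p = 0.00172, 2 of 4) and not on its second (1.83, SE 0.59, adjusted p = 0.0546, 3 of 4), Angpt2 by 1.63 (SE 0.39, adjusted p = 0.00843) and Tek by 1.51 (SE 0.46, adjusted p = 0.0395, 1 of 4), with overlapping arrays for Tek. With batch as a term the NSB side of these differences rests on replicate 3 alone, since NSB replicates 1 and 2 then set the level of batch 1. With an offset of 100 Mmrn2 was 1.10 and Pecam1 0.92, still called. With cyclic loess normalisation 0 of the 4 passed, at 0.91, 0.69, 1.5 and 0.32, and in batch 3 alone, which held 1 NSB array, the values were 2.20, 2.23, 1.62 and 1.28 with 0 called, against 0.405 percent of all probes. Without NSB replicate 1 or 2 the call of Tek was lost (1.51 in each, adjusted p = 0.0501), as it was without E12.5 replicate 1 (1.43) or E13.5 replicate 1 (1.40). It was also lost with no filter (1.51, adjusted p = 0.0537) and with an offset of 100 (0.57, adjusted p = 0.0737). The replicate block lost the call of Angpt2 (1.40, adjusted p = 0.0557). The count was 7 with no batch term, with batch means removed and with BeadChip as a random block. In these settings 20.9, 15.9 and 17.9 percent of all probes were called, and with cyclic loess 6.29 percent were.

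Other lists moved in the same comparison. Surface genes gave 4 of 12 higher, with a median of 0.39. They were Emcn (2.75) and Cdh5 (2.18), both detected on 0 NSB arrays, Icam2 (2.50) and Cd93 (1.64). All 4 lost the call with cyclic loess (1.47 for Emcn, 0.87 for Cdh5, 1.21 for Icam2 and 0.63 for Cd93). Transcription factors gave 5 higher, among them Ets1 (2.72), Lmo2 (2.29) and Elk3 (2.28), and 1 lower, Sox17 (-4.10), with a median of 0.96. The higher ones fell to 3 with cyclic loess and with an offset of 100. Of the VEGF and Notch list Esm1, a marker of sprouting tip cells, was higher (2.41, detected on 0 NSB arrays, lost with cyclic loess and an offset of 100) with Vegfc (1.51) and Hey1 (1.04), and Aplnr was lower (-2.27). The angiopoietin-Tie list had 0 of 4 called, and 1, Foxo1, with no background correction and with an offset of 100. Red blood cell genes gave 3 of 6 higher, Hbb-y (7.5), Hba-a1 (4.14) and Hba-x (3.75), with summed intensities of 34400 and 17500 at E12.5 and 61600 and 23200 at E13.5 against 3940, 1740 and 1180 in NSB. Macrophage genes Aif1 (2.38) and Cx3cr1 (2.34) and surface ectoderm genes Krt14 (4.55) and Trp63 (4.37) were higher too. Lower were Foxa2 (-2.30), Nkx6-1 (-1.66, lost with cyclic loess) and Ttr (-2.98, lost in all 3 scaling alternatives). The part of these cell types was not tested.

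After normalisation the CNH was brighter at E13.5 than at E12.5 for several members. Mmrn2 went from 5.75 and 5.60 to 8.73 and 8.11, and the first Pecam1 probe from 5.72 and 5.27 to 6.86 and 8.53. Sox18 went from 5.38 and 5.41 to 7.58 and 6.86, and Tek from 5.66 and 5.05 to 7.29 and 6.55. The arrays of the 2 stages did not overlap for any of these 4 probes, and E13.5 was above for 18.2 percent and below for 24.3 percent of all probes in this way. For these 4, 0 of the 2 arrays at E12.5 had detection. The second Pecam1 probe, detected on both E12.5 arrays and on 1 at E13.5, overlapped between the stages. limma called 4 of 10 member probes, all higher, against 9.33 percent of all probes, with a median of 1.02 against -0.08 over all probes. Mmrn2 rose by 2.75 (SE 0.23, adjusted p = 5.93e-07), Pecam1 on its first probe by 2.20 (SE 0.36, adjusted p = 0.000756) and not on its second (0.48, SE 0.52, adjusted p = 0.559), Sox18 by 1.83 (SE 0.38, adjusted p = 0.00574, detected on 1 of 2) and Tek by 1.56 (SE 0.40, adjusted p = 0.0205, 1 of 2). Batch 2 and batch 3, with 1 array of each stage, gave 2.99 and 2.51 for Mmrn2, 1.14 and 3.26 for the first Pecam1 probe, 1.52 and -0.56 for the second, 2.20 and 1.45 for Sox18 and 1.63 and 1.5 for Tek, with 0 called in each, against 0.0184 percent and 0 of all probes. Without E12.5 replicate 2 the calls of the first Pecam1 probe (1.82), Sox18 (1.66) and Tek (1.33) were lost, and that of Mmrn2 was not. Without E13.5 replicate 1 the call of Tek was lost (1.25). The first Pecam1 probe stood at 1.34 without E13.5 replicate 2 and at 3.06 without E13.5 replicate 1.

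Before normalisation the deposited intensities did not show this rise. Mmrn2 had 186 and 98.0 at E13.5 against 112 and 126 at E12.5, the first Pecam1 probe 101 and 110 against 112 and 112, Sox18 123 and 82.2 against 103 and 117, and Tek 113 and 80.6 against 110 and 103. The stages overlapped for Mmrn2, Sox18 and Tek, and for the first Pecam1 probe both E13.5 arrays lay below those of E12.5. Array medians were 78.4 and 72.7 at E13.5 and 91.2 and 96.3 at E12.5, the lowest detected intensities 89.3 and 84.4 against 114 and 126, and the E13.5 arrays detected 13979 and 10814 probes against 15030 and 16011, the second being the fewest of all arrays. For all 4 the E13.5 intensities stood above those of E12.5 only once the arrays had been normalised. Detection, set within each array and also deposited, did differ between the stages. At E13.5 it held on 2 arrays for Mmrn2 and the first Pecam1 probe and on 1 for Sox18 and Tek, against 0 at E12.5. For the second Pecam1 probe it held on 1 array at E13.5 and 2 at E12.5. With cyclic loess normalisation Mmrn2 was 1.42 and the first Pecam1 probe 1.02 (1.67 and 1.22 with an offset of 100), both still called, Sox18 (1.44, adjusted p = 0.0823) and Tek (1.06, adjusted p = 0.157) were not (0.90 and 0.72 with the offset, called), and 5 of 10 member probes were higher in place of 9. Cyclic loess also moved the median of all probes from -0.08 to 0.06 and the share of all probes called from 9.33 to 2.86 percent.

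Of the other vessel genes at E13.5, 10 of 12 surface and junction genes were called higher and 0 lower, with a median of 1.49, including Vwf (2.81, detected on 0 arrays at E12.5), Icam2 (2.51), Plvap (2.45), Cldn5 (2.38) and Emcn (1.84). With cyclic loess 4 of 12 were called and 11 of 12 were higher, with a median of 0.85, and Icam2 (1.09, adjusted p = 0.0727) and Emcn (0.60, adjusted p = 0.438) were among those lost. Summed, this list was 5490 and 5510 at E13.5 and 2230 and 1850 at E12.5. The transcription factors gave 1 higher, Sox7 (1.92, detected on 1 of 2 arrays), and 1 lower, Etv2 (-1.15), with a median of -0.29, and 0 of either with cyclic loess. Nrp1 was higher (1.82) in the VEGF and Notch list, and the angiopoietin-Tie list had 0 of 4 called. Alas2, of heme synthesis in red blood cells, was higher (1.93), while Pdgfrb of pericytes (-1.87), Cx3cr1 (-2.40) and Emr1 (-1.23) of macrophages, Noto (-1.94) and Dll1 (-2.57) were lower. Of these, cyclic loess kept the calls of Cx3cr1 and Emr1 and lost those of Alas2, Pdgfrb, Noto and Dll1. Macrophage and platelet sums were 626 and 1040 at E13.5 and 1190 and 783 at E12.5. The part of these cells and of the low detection on these arrays was not tested.

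**Figure D4:**
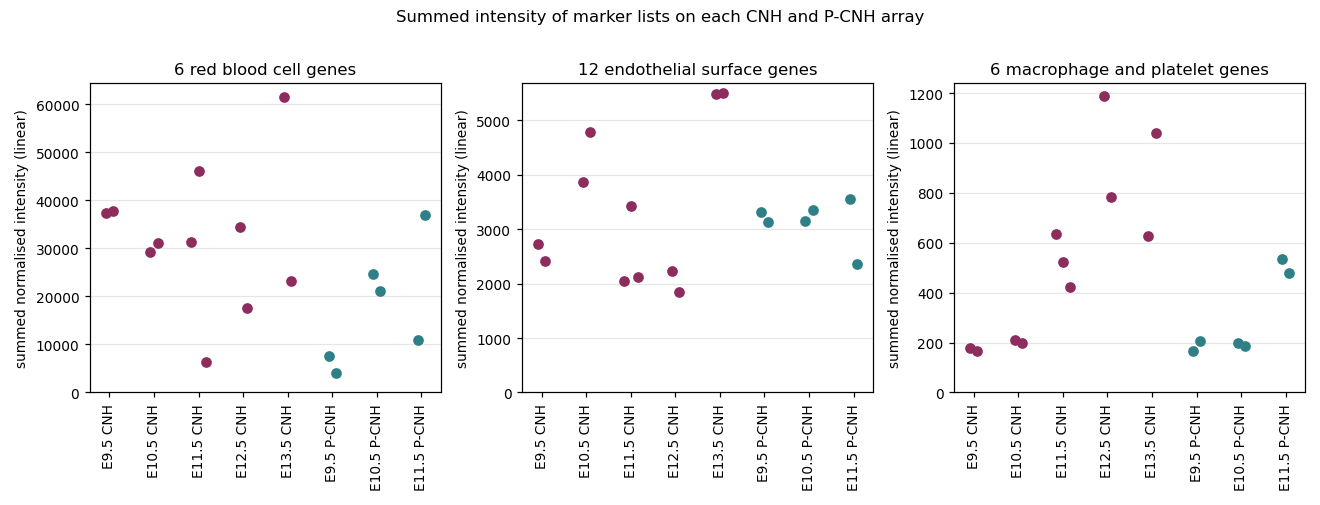
Summed normalised linear intensity (vertical axis) of 6 red blood cell, 12 endothelial surface and 6 macrophage and platelet genes on each CNH and P-CNH array, by region and stage (horizontal axis). At E9.5 the red blood cell sums are 37300 and 37800 in the CNH and 7500 and 4140 in the P-CNH, and the endothelial sums are highest at E13.5, at 5490 and 5510.

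In single steps between regions that share arrays with the choice of genes, the 5 probes of Tek, Esam, Pecam1 and Sox18 were tested and limma called 0 in each. Of all probes it called 5.04 percent for E9.5 CNH against NSB, 0.0737 for E10.5 against E9.5 CNH, 0.0829 for E11.5 against E10.5 CNH, 0.226 for E12.5 against E11.5 CNH, and in the P-CNH 0.0967 for E10.5 against E9.5 and 0.115 for E11.5 against E10.5. At an unadjusted p under 0.05 were, in this order, 2, 2, 1, 0, 2 and 1 of the 5 probes, and 16.3, 6.78, 3.96, 7.63, 4.46 and 4.51 percent of all probes. From E9.5 to E10.5 in the CNH all 5 were higher (4 with no background correction), with a median of 1.08, and from E10.5 to E11.5 1 of 5 was (0 with cyclic loess), with a median of -0.90. Each step into or out of E10.5 crosses from batch 1 to the others through NSB replicate 3, and with no batch term Esam and Sox18 were called higher in E10.5 than in E9.5 CNH and Sox18 was called lower in E11.5 than in E10.5 CNH. With no batch term 1.84 and 6.48 percent of all probes were called in these steps.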

How the data were processed

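The probe intensities were deposited by the authors without normalisation, as the average bead signal of each probe on a linear scale from 36 MouseWG-6 arrays. The detection p-value deposited beside each intensity compares a probe with the negative controls of its array. The methods of the study name lumi for its own processing, which was replaced here by limma. With R 4.3.3 and limma 3.58.1, intensities were corrected by normexp with control values inferred from the detection p-values, given an offset of 16, quantile normalised and set on the log2 scale. Probes with a detection p under 0.01 on at least 1 array were kept, 21712 of 45281. A linear model with 16 regions and 3 batches left 18 residual degrees of freedom, and limma's moderated two-sided test was adjusted by Benjamini-Hochberg over all probes tested in each of the comparisons. The scripts were tested on simulated data. Python 3.11.15, numpy 2.4.6, pandas 2.3.3 and matplotlib 3.10.9 served for promoters and plots.

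Probe symbols are those of the deposited table and can be old. Etv2 stands there as Etsrp71. For a gene with several probes the one brightest over all arrays comes first. The genes named are the members with all their probes, list genes that were called with a few further examples of a list, and for each member the 3 genes of highest correlation over the region levels. The 13 lists were angiopoietin-Tie, VEGF and Notch, endothelial surface and junction, endothelial transcription factors, pericyte and smooth muscle, primitive red blood cell, macrophage and platelet, notochord, presomitic mesoderm, neural, somite and sclerotome, surface ectoderm and visceral endoderm, with 1 probe a gene. The members and lists were chosen with earlier results of these data known. Alternatives were background correction, offset, cyclic loess, filters, handling of batch and BeadChip, a replicate block, single batches and each array left out. The number of arrays limits the precision.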

Additional observations from a re-analysis of the deposited data

Results flagged for a closer look

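Mmrn2 and Sox18 were flagged because every CNH array lay above every P-CNH array at an earlier stage and below every one at E11.5. Of all probes 23.2 percent lay above in this way at E9.5 and 19.2 percent at E10.5, and 5.70 percent lay below at E11.5. The share of all probes with such a turn was not counted. For Mmrn2 the log2 difference went from 1.98 at E10.5 to -0.80 at E11.5, a change of -2.78 (-1.48 with an offset of 100). From 0.29 at E9.5, where both regions were at background, to the same value it changed by -1.10 (-0.39 with an offset of 100). These changes of Mmrn2 were not tested, since the gene was picked on them, and at E11.5 1 of 5 arrays detected it. For Sox18 the difference went from 1.23 at E10.5 to -0.67 at E11.5, a change of -1.89 (adjusted p = 1 by limma), and from 0.44 at E9.5, a change of -1.10 (adjusted p = 0.823). Sox18 was at background in both regions at E9.5 and at E11.5, so that its sign there is that of background levels.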

How the results depend on the processing

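The count of member probes called in St5 stayed between 6 and 8 of 10 over the settings of all arrays and between 5 and 8 when each array was left out in turn. Over the settings of all arrays 2.45 to 7.54 percent of all probes were called in St5. The cause of the moves listed here was not tested.

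In the CNH and P-CNH comparisons of tested members the count was 0 in every setting, with these exceptions: 4 at E10.5 with batch 1 alone (with or without the block), and 1 (Sox18) for the change from E9.5 to E11.5 with BeadChip as a fixed block. For PP against A it was 2 with cyclic loess, 2 with batch means removed, and from 0 to 3 with 1 array left out. For PP against P it was 1 with no batch term and from 0 to 1 with 1 array left out. For the late CNH against NSB it was 5 with no background correction, 3 with an offset of 100 and 3 with no filter (Tek lost in both), 0 with cyclic loess, 7 with no batch term, 7 with batch means removed, 7 with BeadChip as a random block and 0 with batch 3 alone, and from 3 to 6 with 1 array left out. E13.5 against E12.5 CNH gave 5, with Esam added, with no background correction, an offset of 100 and BeadChip as a fixed or random block, 2 with cyclic loess, 0 with batch 2 alone and 0 with batch 3 alone, and from 1 to 5 with 1 array left out. The share of all probes called moved with these settings. For PP against A it went from 6.15 percent to 9.69 with cyclic loess and 6.2 with batch means removed. For PP against P it went from 0.792 to 1.72 with no batch term. For the change from E9.5 to E11.5 it went from 0.0276 to 0.981 with BeadChip as a fixed block. With no batch term E9.5 CNH against NSB gave 2 (8.18 percent of all probes called), E10.5 against E9.5 CNH 2 (1.84), E11.5 against E10.5 CNH 1 (6.48) and E10.5 against E9.5 P-CNH 1 (0.866). BeadChip as a random block gave 1 for E11.5 against E10.5 CNH, and E9.5 CNH against NSB gave from 0 to 1 with 1 array left out (Sox18, without A replicate 3). For the late CNH against NSB the share of all probes called was 9.55 percent in the main fit. It was 9.4 with no background correction, 8.67 with an offset of 100, 5.77 with no filter and 6.29 with cyclic loess. It was 20.9 with no batch term, 15.9 with batch means removed and 17.9 with BeadChip as a random block. For E13.5 against E12.5 CNH it went from 9.33 to 2.86 with cyclic loess, and to 20.7 and 16 with BeadChip fixed and random. No called value changed sign.

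The replicate block left 7 calls in St5 and 4 for E13.5 against E12.5 CNH, and 3 for the late CNH against NSB, where Angpt2 was lost. Over all arrays, samples with the same number hardly deviated together (median r 0.032 over 246 pairs, against -0.018 over 360 pairs of other numbers). Of the 246 pairs 160 were from other batches, so that this median cannot show whether samples are paired within a batch or stage. At E10.5 each CNH and P-CNH pool held 17 pieces, and the labels do not say whether both came from the same embryos. Within a batch the median was 0.107 over 86 pairs of the same number, of which 44 were over 0.1. In batch 1 the number is also the BeadChip, and there 8 of 15 region pairs were over 0.1 (median r 0.183, lowest -0.080, CNH and P-CNH at E10.5 0.371). A replicate block on batch 1 alone, chosen after seeing the data, again gave 4 of 5 calls at E10.5 and 8 of 10 in St5, as batch 1 without it.

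For the described differences Angpt2 at E9.5 ranged from 1.55 to 3.53 and Klhl6 at E9.5 from 2.81 to 5.61 over the settings, while Mmrn2 at E9.5, at background, turned to -0.15 with cyclic loess. Mmrn2 fell with an offset of 100 from 1.98 to 1.14 at E10.5, from -0.80 to -0.35 at E11.5 and from -2.78 to -1.48 for the change between them. Scaling moved the share of calls that were higher from 88.6 to 65.7 percent at E11.5 (CNH against P-CNH), from 49.4 to 70.6 for PP against P and from 40.5 to 23.8 for E9.5 CNH against NSB, each with cyclic loess. In the single steps it went from 66.7 to 56.0 with cyclic loess, 42.4 with an offset of 100 and 100 with no background correction for E11.5 against E10.5 CNH, from 73.5 to 85.4 with cyclic loess and 60.4 with the offset for E12.5 against E11.5 CNH, from 71.4 to 60.4 with cyclic loess and 81.8 with no background correction for E10.5 against E9.5 P-CNH, and from 60.0 to 41.5 with the offset and 85.7 with no background correction for E11.5 against E10.5 P-CNH. Cyclic loess also moved the median of all probes from 0.07 to -0.08 for E9.5 CNH against NSB and from -0.06 to 0.07 for E10.5 against E9.5 CNH. Calls among all probes, with the range over the settings, were 37 (11 to 290) for CNH against P-CNH at E9.5, 69 (46 to 621) for E10.5, 35 (0 to 168) for E11.5, 1187 (945 to 3000) for St5, 1335 (0 to 2103) for PP against A, 172 (46 to 510) for PP against P, 2073 (88 to 4542) for the late CNH against NSB, 2026 (0 to 4498) for E13.5 against E12.5 CNH, 1095 (693 to 1872) for E9.5 CNH against NSB, 16 (11 to 399) for E10.5 against E9.5 CNH, 18 (5 to 1406) for E11.5 against E10.5 CNH, 49 (0 to 199) for E12.5 against E11.5 CNH, 21 (11 to 231) for E10.5 against E9.5 P-CNH and 25 (7 to 561) for E11.5 against E10.5 P-CNH, and for the changes of CNH against P-CNH they were 0 (0 to 14) for E9.5 to E10.5, 1 (1 to 2) for E10.5 to E11.5 and 6 (2 to 213) for E9.5 to E11.5. Without NSB replicate 3 the comparisons between batch 1 and the other batches had no estimate. Where 1 array of a region was left, it was assumed to vary like the others. Regions had 2 or 3 arrays, Tek, Pecam1 and Mmrn2 lay near background on most arrays, and a level there holds no order.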
